A study of Mus musculus with 6 samples.

Results

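The peaks described here are the promoter peaks of NRF2, a transcription factor encoded by Nfe2l2, in ChIP-seq (sequencing of immunoprecipitated chromatin) of mouse embryonic fibroblasts (MEFs). They are all the peaks that the authors' annotation places at a promoter or transcription start site (TSS) or in a 5′ untranslated region (5′ UTR), which made 401 of the 16057 peaks in 4 lists. The lists came from GCN2 knockout (KO) MEFs without leucine, GCN2 KO MEFs in complete medium, wild-type (WT) MEFs without leucine and WT MEFs in complete medium, all of strain 129S6/SvEvTac and all kept in the stated DMEM for 24 h. GCN2, the kinase encoded by Eif2ak4, senses uncharged tRNA when amino acids run short. Each list stands for 1 library, and the 2 input libraries, 1 per genotype, came from complete medium and were not analysed here on their own. With no replicates, a difference between lists has no replicate check, the sequencing depth behind each list is unknown, and a promoter without a peak may still have been bound below the authors' threshold. The labels do not say how many MEF lines stand behind each genotype.

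NRF2 is held in the cytoplasm and marked for destruction by KEAP1 until oxidants or electrophiles modify KEAP1. It then enters the nucleus, pairs with a small MAF protein and binds the antioxidant response element (ARE), whose core reads TGACNNNGC. Its known target genes make and recycle glutathione and thioredoxin, supply NADPH, detoxify quinones and handle heme and iron. AP-1, the family of JUN and FOS dimers, binds the related element TGANTCA, and a sequence can match both.

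Where the sequence under a promoter region found in several lists could be searched, most windows held such an element close to the middle of the peak. Merging overlapping peaks gave 333 promoter regions, and 36 of them had a peak in 2 or more lists. RefSeq promoter windows (GRCm38.p6, the assembly of mm10, 250 bases before to 50 bases from the TSS on) were covered by at least 100 bases of peak in 107 regions, 17 of them among the 36. The 30-base sites below are the ARE core match nearest to the peak centre in 8 of those 17 windows, with the 9 bases of the core in capitals. They are 8 of the 10 matches within 50 bp of the centre, and those at A530013C23Rik and Fetub are not printed.
Prdx1, chr4:116685455-116685484, minus strand: ctacgggggaTGACTCAGCgctttccctgg
Txnrd1, chr10:82859103-82859132, minus strand: cgtgtcagaaTGACAAAGCaaaaatccagt
Me1, chr9:86695901-86695930, minus strand: gatgccgccgTGACTCAGCgcttctcgcgg
Ptges3, chr10:128058978-128059007, minus strand: cggcggctggTGACGCAGCaaaatgcccgg
2210408F21Rik, chr6:31220337-31220366, minus strand: ccttcttgcaTGACACAGCagaaccgcagc
Srsf2, chr11:116853255-116853284, minus strand: cccaccgcagTGACTGCGCgctttccgccc
Cxcl10, chr5:92348947-92348976, plus strand: actttggagaTGACTCAGCaaggctccgca
Htatip2, chr7:49759453-49759482, plus strand: gtctgagctgTGACTCAGCacttccctagg
In these 8 windows the cores shared the letters TGAC and GC that the search required, and the letters between them and outside the core varied. Me1, Prdx1, Cxcl10 and Htatip2 carried a core that also matched the AP-1 element. The Aox1 window held no ARE core match and 1 AP-1 match (7 bases in capitals), and the Srxn1 window held an AP-1 match nearer to the peak centres than its ARE core match.
Aox1, chr1:58029739-58029768, plus strand: actagagcaaTGACTCAggacttcctgagg
Srxn1, chr2:152105469-152105498, plus strand: aaattcacccTGAGTCAgcggccgggcgcg

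Promoters took a small share of every list. GCN2 KO MEFs without leucine had 79 promoter peaks among 4600, which is 1.72% (exact Clopper-Pearson 95% interval 1.36 to 2.14). GCN2 KO MEFs in complete medium had 75 among 3141, or 2.39% (1.88 to 2.98). WT MEFs without leucine had 180 among 5980, or 3.01% (2.59 to 3.48), and WT MEFs in complete medium had 67 among 2336, or 2.87% (2.23 to 3.63). The share was thus lowest in GCN2 KO MEFs without leucine, and these intervals cover counting error only. Most carried the promoter-TSS annotation, and 8, 8, 19 and 4 peaks, in the same order of lists, lay in a 5′ UTR. The peaks were assigned to 79, 74, 179 and 66 genes, 329 in all, of which 35 had a promoter peak in at least 2 lists and 12 in all 4. Noncoding RNA genes received 12, 12, 21 and 11 of the peaks in the same order.

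The 4 comparisons of the design gave 2 differences in promoter share whose counting interval left out 0. GCN2 KO MEFs without leucine lay below WT MEFs without leucine, with a difference of -1.29 percentage points (95% Newcombe interval -1.87 to -0.712). The difference between GCN2 KO MEFs without leucine and GCN2 KO MEFs in complete medium was -0.670 points (-1.35 to -0.0351). Between WT MEFs without leucine and WT MEFs in complete medium it was 0.142 points (-0.717 to 0.903), and between GCN2 KO and WT MEFs in complete medium it was -0.480 points (-1.38 to 0.367). These intervals compare 4 libraries and not the conditions, and the libraries also differed in list length. With every list held to its 2336 best-scoring peaks, the difference between GCN2 KO and WT MEFs without leucine was -1.80 points. With all peaks centred within 1000 bp of a TSS as members, that between GCN2 KO MEFs without leucine and in complete medium was -0.116 points.

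Distances are to the TSS of the assigned gene. Peaks with the promoter-TSS annotation had centres between -1000 and 826 bp from that TSS. Their positions, and the majority upstream, are thus a description of peaks chosen by position. For 39 promoter peaks, that at 826 bp among them, the annotation named a transcript of a gene other than the assigned one. Their distances from the promoter so named were not computed. The median distance of the peak centre from the TSS was -177 bp in GCN2 KO MEFs without leucine, -142 bp in GCN2 KO MEFs in complete medium, -178.5 bp in WT MEFs without leucine and -128 bp in WT MEFs in complete medium, with negative values upstream. Upstream centres made up 70.9%, 61.3%, 70.0% and 68.7% of the peaks in the same order, and 26.6%, 26.7%, 22.8% and 29.9% lay within 100 bp of the TSS. A few 5′ UTR peaks were farther from the nearest TSS than 1000 bp, with 2, 2, 4 and 1 such peaks in the 4 lists. The farthest were in Nfil3 at 12063 bp in GCN2 KO MEFs without leucine, Wfdc8 at 4374 bp in GCN2 KO MEFs in complete medium, Esr1 at 100308 bp in WT MEFs without leucine and Fam110b at 154329 bp in WT MEFs in complete medium. None of these peaks overlapped a peak of another list. The annotation split 2 regions, and the one at Sfi1 is described below. The other was at Gapdh, the glycolytic enzyme often used as a reference gene. Its peak counted as a promoter peak in WT MEFs without leucine, at -998 bp, while the peaks at -1027 bp in both GCN2 KO lists and -1051 bp in WT MEFs in complete medium were annotated to a transcript end.

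**Figure D1:**
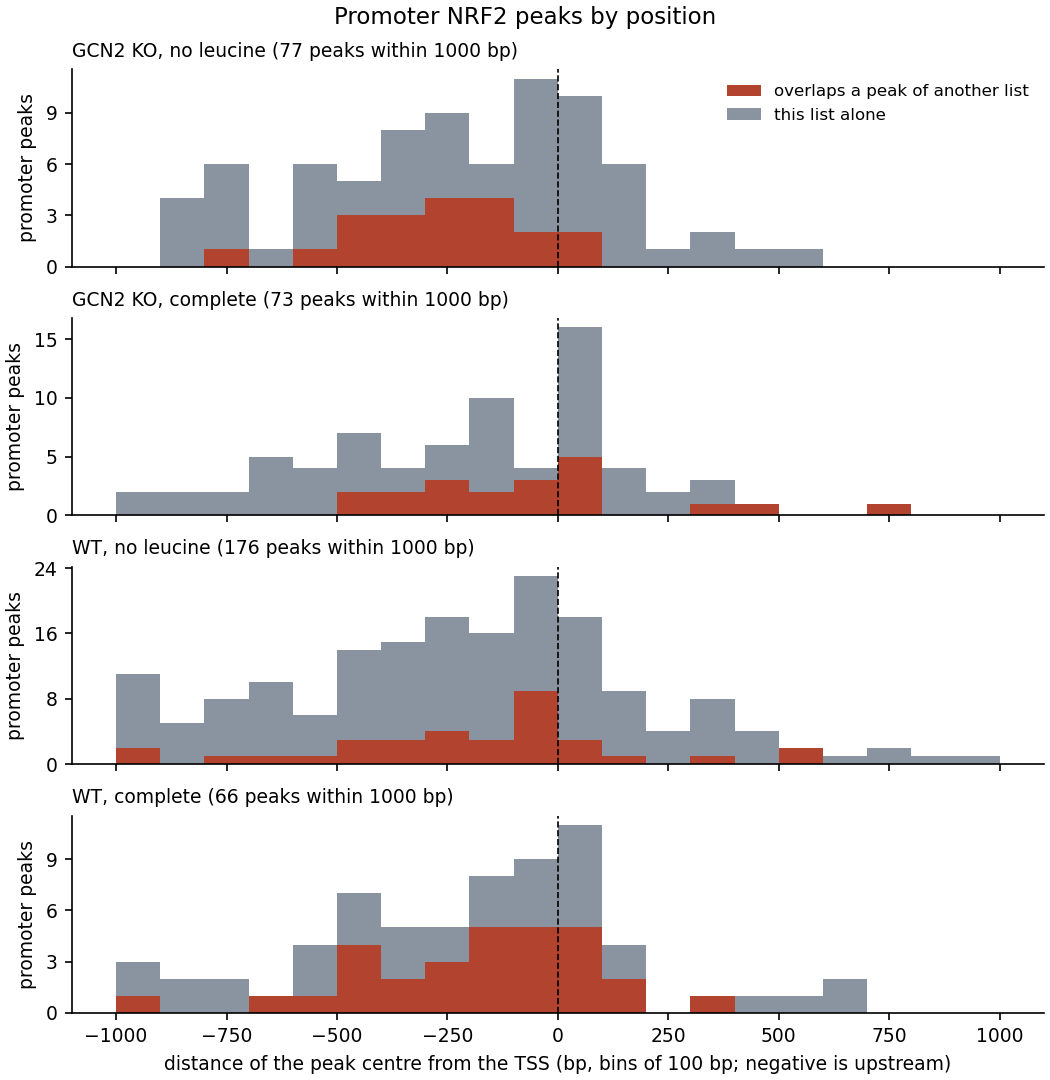
Number of promoter NRF2 peaks (y axis) by the distance of the peak centre from the TSS (x axis, bp, bins of 100 bp) in each of the 4 lists; red bars are peaks that overlap a peak of another list and grey bars are peaks of that list alone. Between 61.3% and 70.9% of each list's promoter peaks lie upstream of the TSS of the assigned gene, in a set chosen by position.

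Promoter peaks were richer in G and C and in CpG dinucleotides than the other peaks of the same list. The median GC fraction of the 300-bp peak windows was 0.548, 0.565, 0.568 and 0.571 for promoter peaks, against 0.518, 0.518, 0.518 and 0.512 for the other peaks, in GCN2 KO without leucine, GCN2 KO complete, WT without leucine and WT complete. The within-list difference averaged 0.0465 ± 0.0124 (SD, n = 4 libraries) and was positive in 4 of 4 libraries (exact two-sided sign-flip permutation test, p = 0.13, the smallest p that 4 libraries allow). The median CpG fraction was 0.0267, 0.0267, 0.0300 and 0.0367 for promoter peaks, against 0.0133 for the other peaks of every list. That difference averaged 0.0167 ± 0.00471 (SD, n = 4 libraries), again with p = 0.13 in the exact permutation test. Windows with a CpG fraction of at least 0.1 made up 11.4%, 14.7%, 13.3% and 11.9% of promoter peaks, against 0.332%, 0.228%, 0.483% and 0.573% of the other peaks. Most promoter peaks therefore lay below that fraction. Of all 32851 RefSeq promoter windows 11.7% reached it, against 11.2% of the 107 windows under promoter regions. The median GC fraction was 0.527 in all RefSeq windows and 0.577 in those under promoter regions, and the median CpG fraction 0.0233 and 0.0333. The contrast with the other peaks is thus a description of peaks chosen at promoters. Among the promoters found in all 4 lists, the most CpG-dense windows were those of Me1, the malic enzyme that makes NADPH, at 0.170, 0.170, 0.163 and 0.163, and of Dst, at 0.167, 0.163, 0.163 and 0.170. Aox1, an aldehyde oxidase, had 0.0167 in every list.

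**Figure D2:**
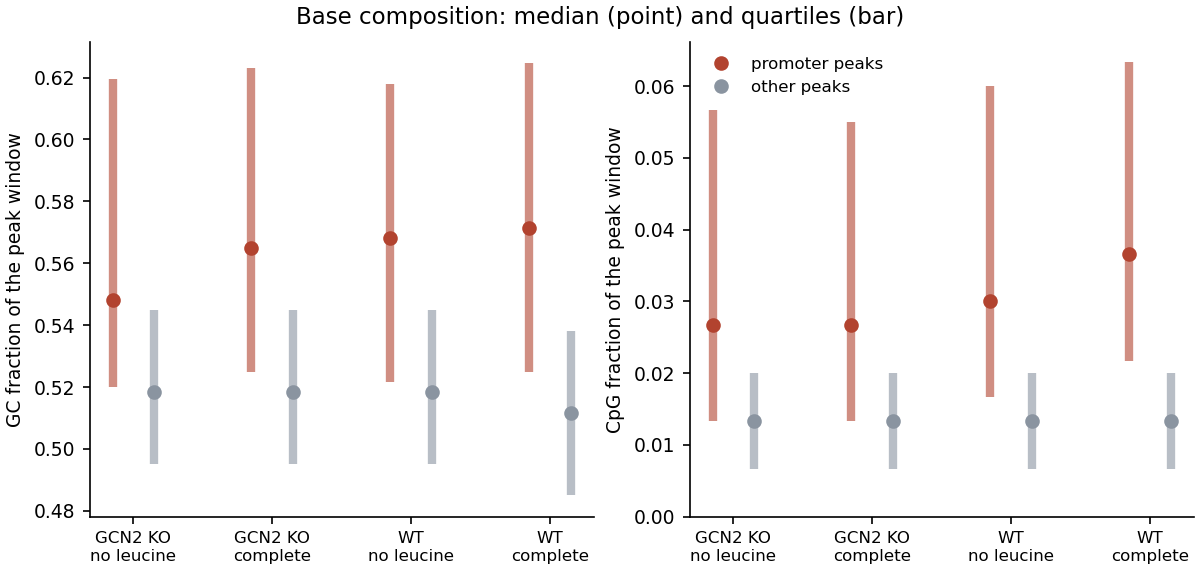
GC fraction (left) and CpG fraction (right) of the 300-bp peak windows by list; points are medians, bars run from the lower to the upper quartile, red is promoter peaks and grey is the other peaks of the same list. The promoter medians lie above those of the other peaks in all 4 lists on both axes, in a set chosen at promoters.

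Promoter peaks were not, as a whole, the best-scoring peaks of their lists. Scores are the authors' own value per peak and were used here only to rank peaks within a list. A rank percentile of 100 marks the top of a list. The median percentile of promoter peaks was 44.7, 55.0, 49.6 and 49.5, against 52.7, 48.3, 49.6 and 49.5 for the other peaks, in the same order of lists, and the mean difference was -0.330 ± 6.02 (SD, n = 4 libraries; exact sign-flip permutation test, p = 1). Scores are whole numbers with many ties, and in both WT lists the promoter and other medians fell on the same tied score. The difference of 0 there says little about rank. Above percentile 50 lay 49.4%, 53.3%, 49.4% and 46.3% of promoter peaks, against 51.0%, 47.9%, 42.5% and 47.4% of the other peaks. The best-scoring 10% of each list held 13.9%, 16.0%, 13.3% and 25.4% of promoter peaks, against 10.02%, 9.72%, 9.66% and 9.52% of the other peaks. That difference averaged 7.43 ± 5.74 percentage points (SD, n = 4 libraries) and was positive in 4 of 4 libraries (exact sign-flip permutation test, p = 0.13). A minority of promoter peaks thus ranked high in a set that otherwise spread over the whole list.

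Prdx1 and Txn1, whose products reduce peroxides and oxidised proteins, were among the 5 best-scoring promoters of every list. Prdx1, a peroxiredoxin, ranked 12, 34, 17 and 12 in GCN2 KO without leucine, GCN2 KO complete, WT without leucine and WT complete. Txn1, thioredoxin itself, ranked 33, 21, 16 and 15 in the same order. Txnrd1, the thioredoxin reductase, ranked 422, 59, 18 and 27, and was thus placed lowest in GCN2 KO MEFs without leucine. Me1 ranked 127, 146, 28 and 73. Since the lists differ in length, a difference in rank is not a difference in binding.

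Of the 333 promoter regions, 14 had a peak in all 4 lists, beside 1.78% of the 14390 regions of any annotation. The promoter annotation held in all 4 lists for 12 of them. Those reported here were Prdx1, Txn1, Txnrd1, Me1, Numbl, 2210408F21Rik, Dst, Aox1, Ptges3, Sqstm1 and Nqo1. Numbl, a membrane adaptor related to Numb, ranked 379, 164, 96 and 53 in GCN2 KO without leucine, GCN2 KO complete, WT without leucine and WT complete. 2210408F21Rik, a noncoding RNA gene, ranked 465, 77, 107 and 117. Its peak centres lay within 8 bp of its TSS in every list. Dst encodes a linker of the cytoskeleton, and its region ranked 591, 214, 239 and 98, although the promoter transcript named by the annotation belongs to Bend6. Aox1 ranked 422, 581, 167 and 117, and Ptges3, which encodes the HSP90 cochaperone p23, ranked 276, 774, 137 and 159. Sqstm1, the autophagy receptor p62 that binds KEAP1, ranked 751, 581, 412 and 292. Every list also held a better-ranked Sqstm1 peak outside the promoter annotation, 2102 to 2119 bp from the TSS, with ranks of 72, 214, 71 and 116.

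Nqo1, a quinone reductase widely used as a readout of NRF2, had a promoter peak in all 4 lists, 429 to 470 bp upstream of its TSS (chr8:107403484-107403825). Its rank was 670 among 4600 peaks, 452 among 3141, 363 among 5980 and 2188 among 2336, by list in that order. The WT list in complete medium thus held the Nqo1 peak near its end, at percentile 4.88, against percentiles of 85.1, 85.3 and 93.9 in the other lists in that order. The remaining 2 regions in all 4 lists were Gapdh, described above, and Sfi1, a gene with several copies in the mouse genome, where the annotation was promoter in GCN2 KO MEFs without leucine and WT MEFs in complete medium and intron in the other lists. The Sfi1 peaks formed a chain in which not every pair overlapped.

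**Figure D3:**
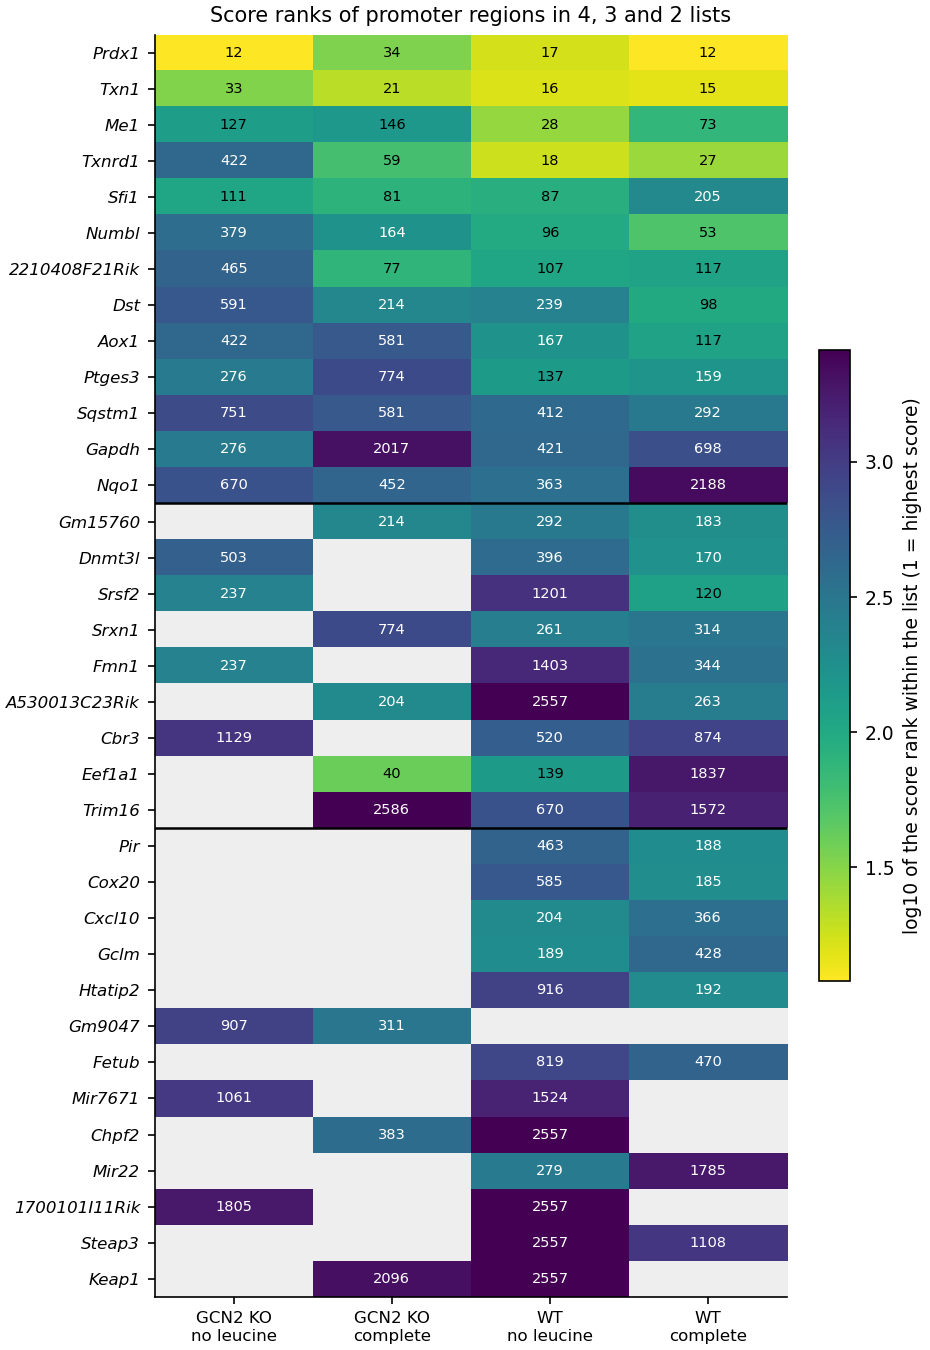
Score rank within each list (numbers, and colour as log10 of the rank, 1 being the highest score) of 35 promoter regions found in 4, 3 or 2 lists, which the black lines set apart; grey cells mark a list with no peak in the region. Prdx1 and Txn1 rank within the best 34 peaks of every list, and 8 of the regions in 2 lists have a peak in both WT lists and in neither GCN2 KO list.

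A further 9 regions had a peak in 3 lists and 13 in 2 lists, and 297 had one in a single list. The 3-list regions included Srxn1, a sulfiredoxin that repairs peroxiredoxins, which ranked 774 in GCN2 KO complete, 261 in WT without leucine and 314 in WT complete and was missing from GCN2 KO without leucine. Cbr3, a carbonyl reductase, ranked 1129, 520 and 874 in GCN2 KO without leucine, WT without leucine and WT complete, and was missing from GCN2 KO complete. Eef1a1, a translation elongation factor, ranked 40, 139 and 1837 in GCN2 KO complete, WT without leucine and WT complete. Trim16, a TRIM family protein, ranked 2586, 670 and 1572 in the same 3 lists. Srsf2, a splicing factor, ranked 237, 1201 and 120 in GCN2 KO without leucine, WT without leucine and WT complete. The other 3-list regions were at Gm15760, Dnmt3l, Fmn1 and A530013C23Rik. At Gm15760, a pseudogene, the promoter transcript named by the annotation belongs to Abcf3.

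Regions in 2 lists divided unevenly between the genotypes. The lists of both GCN2 KO libraries alone shared 1 promoter region, and the lists of both WT libraries alone shared 8. The GCN2 KO region was at Gm9047, annotated as protein-coding, with ranks of 907 without leucine and 311 in complete medium. Promoters made up 1.03% of all 97 regions found in both GCN2 KO lists alone and 5.37% of all 149 regions found in both WT lists alone. The WT pair held Pir, an iron-binding nuclear protein, with ranks of 463 without leucine and 188 in complete medium. It also held Cox20, an assembly factor of cytochrome c oxidase, with 585 and 185, and Cxcl10, a chemokine, with 204 and 366. Gclm, the modifier subunit of the enzyme that limits glutathione synthesis, ranked 189 without leucine and 428 in complete medium, and Htatip2, an oxidoreductase, ranked 916 and 192. Steap3, an endosomal ferrireductase, ranked 2557 and 1108, and Fetub and Mir22 completed the 8. The lists without leucine alone shared Mir7671 and 1700101I11Rik, the lists from complete medium alone shared no promoter region, and GCN2 KO complete and WT without leucine alone shared Chpf2 and Keap1, which encodes the inhibitor of NRF2.

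Promoter peaks recurred more often than the other peaks of each list, and the difference was largest among the best-scoring peaks. In GCN2 KO MEFs without leucine, 20 of 79 promoter peaks (25.3%, exact interval 16.2 to 36.4) overlapped a peak of another list by at least 1 bp, against 13.8% of the other peaks and 14.0% of all peaks. In GCN2 KO MEFs in complete medium it was 20 of 75 (26.7%, 17.1 to 38.1), against 18.2% of the other and 18.4% of all peaks. In WT MEFs without leucine it was 34 of 180 (18.9%, 13.4 to 25.4), against 12.4% of the other and 12.6% of all peaks. In WT MEFs in complete medium it was 30 of 67 (44.8%, 32.6 to 57.4), against 26.4% of the other and 27.0% of all peaks. The within-list difference averaged 11.2 ± 5.18 percentage points (SD, n = 4 libraries) and was positive in 4 of 4 (exact sign-flip permutation test, p = 0.13, the smallest possible). Within bins of 20% of the list by score it averaged 7.57 ± 1.80 points (SD, n = 4 libraries; exact sign-flip permutation test, p = 0.13). Recurrence is overlap among these same 4 lists, so a shared region counts in each list that holds it. The 4 differences are therefore not independent, and their SD and p do not measure replication.

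In the best-scoring 20% of each list, promoter peaks recurred in 80.0%, 88.2%, 65.0% and 95.8% of cases, out of 20, 17, 40 and 24 peaks, in GCN2 KO without leucine, GCN2 KO complete, WT without leucine and WT complete. The other peaks of that bin recurred in 48.2%, 58.2%, 46.6% and 79.1% in the same order. In the lowest-scoring 20% of each list 0, 1, 0 and 1 promoter peaks recurred, out of 17, 17, 32 and 8, and their intervals contained the share of the other peaks in each list. Between pairs of lists, 13 of 79 promoter peaks in GCN2 KO MEFs without leucine overlapped a peak in GCN2 KO complete, as did 13 of 75 the other way. WT without leucine and WT complete shared 30 of 180 and 30 of 67. GCN2 KO complete and WT complete shared 17 of 75 and 18 of 67, and GCN2 KO without leucine and WT without leucine shared 19 of 79 and 19 of 180. The same pairwise shares over all peaks were not computed, so these counts cannot be read as a trait of promoter peaks.

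**Figure D4:**
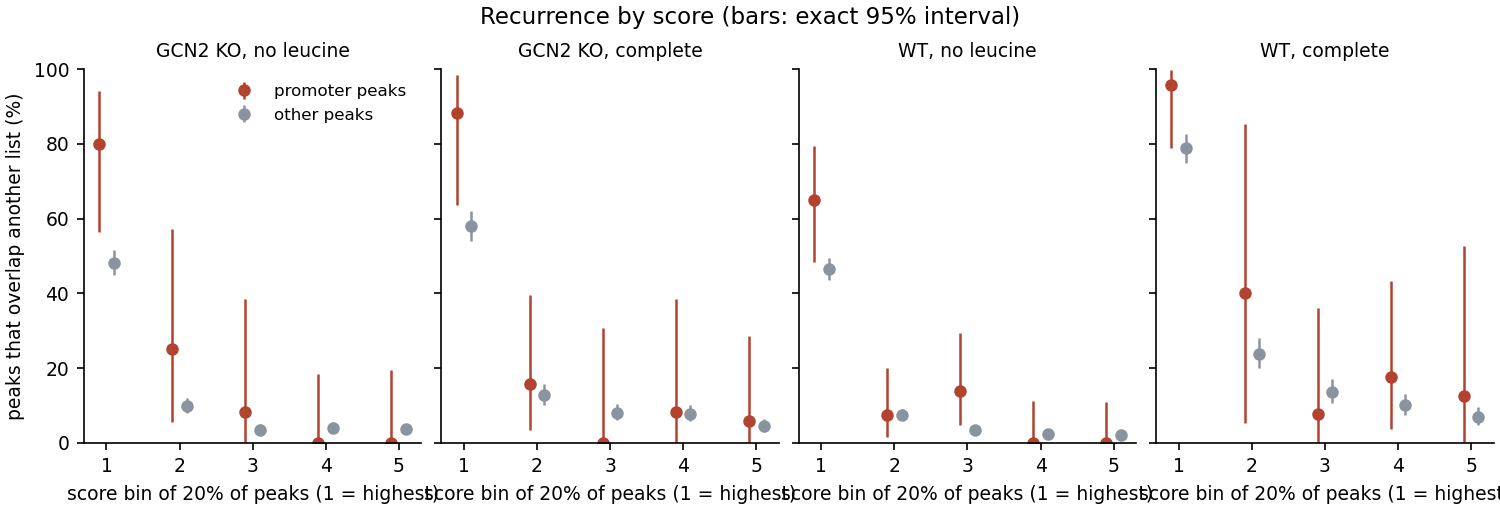
Percent of peaks that overlap a peak of another list by at least 1 bp (y axis) in bins of 20% of the list by score (x axis, 1 is the highest), with exact 95% intervals; red is promoter peaks and grey is the other peaks. In the highest bin promoter peaks lie at 65.0% to 95.8% and the other peaks at 46.6% to 79.1%, and below it most intervals of the promoter peaks contain the value of the other peaks.

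Among the 35 regions in which all pairs of the 300-bp peaks overlapped, the centres spanned a median of 41 bp between lists (0 to 115 bp), a distance that the required overlap itself keeps short. Regions in 2 or more lists had a median mean-rank percentile of 88.6, against 40.4 for regions in 1 list. They had a CpG fraction of at least 0.1 in 22.2% of regions, against 9.43% of regions in 1 list, and median GC fractions of 0.574 against 0.565. The region found in 1 list with the best rank was at Mir3082 in GCN2 KO complete, at rank 31. The best of the other lists alone were 1700007B14Rik at rank 503 in GCN2 KO without leucine, Osgin1, an oxidative stress response gene, at rank 246 in WT without leucine, and Lrrc14b at rank 459 in WT complete. Next in rank were March11 and Car8, both at rank 751, in GCN2 KO without leucine, and Apom at rank 452 and Amer3 at rank 746 in GCN2 KO complete. Kansl1 at rank 553 and Mpp4 at rank 660 followed in WT without leucine, and Rabggtb at rank 569 and Smg5 at rank 623 in WT complete.

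Known NRF2 target genes made up a small part of the promoter peaks but ranked high among them. Of 62 such genes, a list chosen with earlier results of these data known, 8 (12.9%) had a promoter peak in GCN2 KO MEFs without leucine and 10 (16.1%) in GCN2 KO MEFs in complete medium. In WT MEFs the counts were 16 (25.8%) without leucine and 13 (21.0%) in complete medium. Over all 21900 protein-coding genes the shares were 0.306%, 0.288%, 0.703% and 0.247% in the same order of lists. With peaks of any annotation counted, 28, 26, 42 and 34 of the 62 genes had one. The higher WT counts were thus not particular to promoters, and the matching share over all genes was not computed. The median rank percentile of the target peaks was 90.7, 82.6, 94.7 and 91.8, against 44.7, 55.0, 49.6 and 49.5 over all promoter peaks. The 7 targets with a promoter peak in all 4 lists were Prdx1, Txn1, Txnrd1, Me1, Aox1, Nqo1 and Sqstm1. With every list held to its 2336 best-scoring peaks, the counts were 8, 9, 14 and 13.

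Every target with a promoter peak in a GCN2 KO list had one in a WT list too, and 5 targets had one in a WT list and in neither GCN2 KO list. These were Gclm, Pir and Htatip2, in both WT lists, and Osgin1 and Gsr, the glutathione reductase, in WT without leucine alone. Gsr ranked 5391 of 5980, near the end of its list, while Gclm and Osgin1 ranked 189 and 246. The GCN2 KO lists held no peak of any kind assigned to Gclm, Pir, Osgin1 or Gsr. Htatip2 had other peaks there, the nearest 4641 bp from the TSS without leucine and 3345 bp in complete medium. These were 5 of the 16 targets with a promoter peak (31.2%), beside 191 of all 333 promoter regions (57.4%) with peaks in WT lists alone, and 115 regions (34.5%) had peaks in GCN2 KO lists alone. The number of targets averaged 9 in GCN2 KO lists and 14.5 in WT lists (n = 2 libraries each). The target list was chosen with earlier results of these data known, and 2 libraries per genotype cannot decide such a difference. No test result is therefore read from it.

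The difference in recurrence between promoter and other peaks was smaller without these targets. The promoter peaks of target genes overlapped another list without exception in 3 lists, 8 in number in GCN2 KO without leucine, 10 in GCN2 KO complete and 13 in WT complete, and in 14 of 16 cases in WT without leucine. Promoter peaks of all other genes recurred in 16.9%, 15.4%, 12.2% and 31.5% of cases in GCN2 KO without leucine, GCN2 KO complete, WT without leucine and WT complete, against 13.5%, 17.7%, 12.04% and 25.9% of the other peaks of genes outside the target list. These genes still held 12 of 20, 10 of 20, 20 of 34 and 17 of 30 recurrent promoter peaks in the same order of lists. That difference averaged 1.70 ± 3.49 percentage points (SD, n = 4 libraries) and was positive in 3 of 4 (exact sign-flip permutation test, p = 0.375). This split was chosen after the values were seen.

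In the other gene groups 0 to 3 genes each had a promoter peak in any list, beside 1.27% of all protein-coding genes. Of 45 genes of the ATF4 and amino acid response, the pathway that GCN2 switches on, Psat1 of serine synthesis alone had one, at rank 3470 in WT MEFs without leucine. Of 44 heme and iron genes Steap3 alone had one. Among 39 cytoskeletal, glycolytic and other housekeeping genes, Srsf2, Gapdh and Aldoa had one, Aldoa at rank 5397 in WT MEFs without leucine. Eef1a1 was the 1 member of 48 translation genes, Sqstm1 the 1 of 30 autophagy and lysosome genes and Keap1 the 1 of 25 genes of the AP-1, CNC and MAF families and their regulators. No promoter peak was assigned to any of 35 immediate-early and cytokine feedback genes, 31 proteasome genes, 15 fibroblast genes or 15 macrophage genes. A peak list does not measure expression, so these counts do not check the cell type.

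Several genes that NRF2 or GCN2 studies look at had no promoter peak. Hmox1, the heme oxygenase whose AREs lie in distal enhancers, had 2 other peaks in every list, the nearest 3894, 3900, 3909 and 3955 bp from the TSS in GCN2 KO without leucine, GCN2 KO complete, WT without leucine and WT complete. Nfe2l2 itself had a peak 614 bp from the TSS in WT without leucine and 694 bp in WT complete, both outside the promoter annotation, and none in the GCN2 KO lists. Asns, an ATF4 target, had 1 peak 55984 bp away in WT complete. Eif2ak4 had 1 peak 16973 bp from its TSS in WT without leucine, which does not check the knockout. Slc40a1, the iron exporter ferroportin, and Atf4 had no assigned peak in any list.

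The ARE core was frequent in the windows under recurrent promoter peaks and near its background elsewhere. It was found, on either strand, in 12 of 17 windows under regions in 2 or more lists (70.6%, exact interval 44.0 to 89.7), in 13 of 90 under regions in 1 list (14.4%, 7.92 to 23.4) and in 12.4% of all 32851 RefSeq promoter windows. The AP-1 element was found in 7 of 17 (41.2%), 11 of 90 (12.2%) and 7.81% in the same order, and the 2 motifs overlap where the core reads as both. The GC box GGGCGG was found in 14 of 17 (82.4%), 40 of 90 (44.4%) and 35.7%, so it too was more frequent under recurrent regions, whose windows had a median GC fraction of 0.633 against 0.527 for all windows. The CCAAT box was found in 35.3%, 32.2% and 37.4%, values that lay within each other's intervals. By list, the ARE core was in 28.6%, 29.0%, 33.3% and 50.0% of windows under promoter peaks in GCN2 KO without leucine, GCN2 KO complete, WT without leucine and WT complete, against 12.3% of windows under no promoter peak. That difference averaged 22.9 ± 10.1 percentage points (SD, n = 4 libraries) and was positive in 4 of 4 (exact sign-flip permutation test, p = 0.13). With the looser core TGANNNNGC, found in 41.3% of all windows, it averaged 13.5 ± 10.02 points (SD, n = 4 libraries). A match is a description of letters and not of binding, and the lists share regions. The ATF4-type element TGATGNAA was in 0 of 17 windows, 3 of 90 and 3.97% of all windows.

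The matches under recurrent regions lay near the peak centre. In 10 of the 17 windows (58.8%, exact interval 32.9 to 81.6) an ARE core lay within 50 bp of the centre, averaged over the region's peaks, against 5 of 90 windows under regions in 1 list (5.56%, 1.83 to 12.5). The median distance of the nearest match was 16.9 bp over 12 windows with a match in recurrent regions, against 143 bp over 13 windows in regions of 1 list. The match in Srsf2 lay 0 to 3 bp from the centre of each list's peak, in Me1 1 to 9 bp, in 2210408F21Rik 5 to 8 bp and in Txnrd1 2 to 13 bp. Those in Prdx1 and Ptges3 lay 1 to 25 bp and 1 to 34 bp away. In Cxcl10 and Htatip2 they lay 6 to 28 bp and 13 to 63 bp away. The exceptions were Gclm, whose core match lay 216 to 247 bp from the centres and outside its peaks, and Srxn1, where it lay 49 to 103 bp away. The AP-1 match of Srxn1 printed above lay 25 to 29 bp from the centres and that of Aox1 0 to 22 bp. With the bases that follow it, the Srxn1 match also fits the looser core TGANNNNGC. Over AP-1 matches the medians were 17.0 bp over 7 windows in recurrent regions and 125 bp over 11 windows in regions of 1 list.

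**Figure D5:**
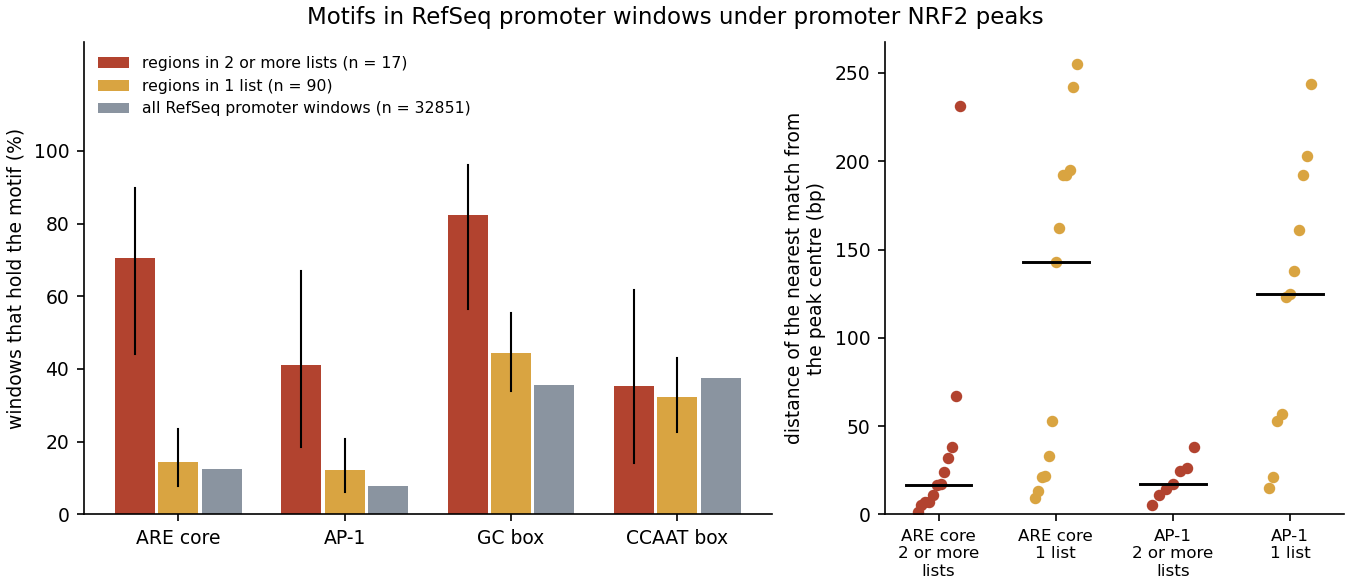
Left, percent of RefSeq promoter windows that hold each motif (y axis) for regions in 2 or more lists (red), regions in 1 list (yellow) and all windows (grey), with exact 95% intervals for the first 2 sets. Right, distance in bp of the nearest match from the peak centre (1 point per window with a match, line at the median): the ARE core medians are 16.9 bp for regions in 2 or more lists and 143 bp for regions in 1 list.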

How the data were processed

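The authors aligned single reads of 50 bp and called and annotated peaks with BWA 0.7.12, MACS2 2.1.0 and HOMER 4.7 on mm10, per the submitters' processing notes, with settings not given in the sources used here. Per the file headers, each NRF2 library was called on its own against the complete-medium input of its genotype. The deposited peak score is a whole number of unnamed source, at least 13 in every list, and CpG and GC content are deposited as a fraction of the 300-bp window.

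Members were the peaks annotated promoter-TSS or 5′ UTR. Equal scores shared the best rank. Peaks overlapping by 1 bp were merged into regions, each counted in the lists whose peaks it merged. Motifs were searched on both strands of RefSeq promoter windows (GRCm38.p6, none of chromosome 18). No genome was used, so promoter windows were compared with other promoter windows and not with the other peaks. The TSS implied by the peaks lay within 1 bp of a RefSeq one for 256 of 309 peaks, and 39 peaks were annotated to a transcript of a gene other than the assigned one.

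The 4 libraries were the units of the exact sign-flip test of within-list differences. For recurrence and motifs these units are not independent, since the lists share regions. The 4 comparisons of promoter share between single lists have intervals alone. GCN2 KO and WT libraries were also compared by exact permutation and paired sign-flip tests of target counts, promoter share and recurrence. With 2 libraries per genotype these tests allow no p below 0.333 and 0.5, so no result is read from them. Scripts ran in Python 3.11.15 with pandas 2.3.3 and scipy 1.17.1, and were tested on simulated data. Members, 12 gene lists (413 entries) and tests were chosen with earlier results of these data known. Genes named were those with promoter peaks in all 4 lists, the 5 best-ranked per list, the 3 best-ranked found in 1 list, members of the gene lists with a promoter peak, up to 3 regions per genotype or medium pair and 7 genes of the study's question. Gm15760, Dnmt3l, Fmn1, A530013C23Rik, Fetub, Mir22, Chpf2, Nfil3, Wfdc8, Esr1 and Fam110b were named after their values were seen. An item that meets these rules is not reported here, although the counts include it.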

Additional observations from a re-analysis of the deposited data

Results flagged for a closer look

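In 3 results the libraries moved in opposite directions under the same contrast, and with 1 library per condition none of these differences was tested. Without leucine minus complete medium, the promoter share of the list differed by -0.670 points in GCN2 KO MEFs and by 0.142 points in WT MEFs. In the same direction of subtraction, the count of target genes at whose promoter NRF2 had a peak differed by -2 in GCN2 KO MEFs and by 3 in WT MEFs. GCN2 KO minus WT, the recurrence of promoter peaks differed by 6.43 points without leucine and by -18.1 points in complete medium. The list of WT MEFs without leucine is the longest and that of WT MEFs in complete medium the shortest, and recurrence was 18.9% in the longest list and 44.8% in the shortest. At equal list lengths the share differences were -0.642 and 0.599 points, the target counts 8, 9, 14 and 13 in GCN2 KO without leucine, GCN2 KO complete, WT without leucine and WT complete, and the recurrence 48.7%, 31.5%, 35.8% and 43.3%. With promoter-TSS annotation alone the share differences were -0.590 in GCN2 KO and -0.00461 in WT MEFs, so the opposite directions did not hold there.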

How the results depend on the processing

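Each result was recomputed with the higher-scoring 50% of every list, equal list lengths, the main chromosomes without multicopy genes and simple repeats, promoter-TSS annotation alone, any peak centred within 1000 bp of the TSS, a reciprocal overlap of 50%, centres within 100 bp, peaks widened by 500 bp, score bins of 10% and a looser ARE core (TGANNNNGC). Of 157 recomputed values for counts, shares, differences and NRF2 targets, 135 counted as unchanged, as did 197 of 220 counts for the other gene lists. The 157 also include the recurrence difference without peaks of target genes, which is outside those settings. It counted as unchanged by its direction alone, although it fell from 11.2 to 1.70 points. Unchanged meant the same direction for differences averaged over the 4 libraries and a value within 1.5 times for counts. For shares, and for share differences between lists, it meant a value within the main 95% interval, so such a difference could change direction and still count. The higher-scoring 50% held 38, 40, 102 and 31 promoter peaks in GCN2 KO without leucine, GCN2 KO complete, WT without leucine and WT complete, of which 52.6%, 42.5%, 27.5% and 80.6% recurred. Equal lengths left 39 and 81 promoter peaks in GCN2 KO and WT without leucine, of which 48.7% and 35.8% recurred. Both keep fewer and better-scoring peaks by construction. Centres within 1000 bp gave 166, 117, 316 and 110 peaks, or 3.61%, 3.72%, 5.28% and 4.71% of the lists. The rank difference between promoter and other peaks turned positive with promoter-TSS alone (1.16) and with centres within 1000 bp (1.95), with exact p of 1 and 0.75. The difference in recurrence lay between 8.28 and 22.5 points, except for the 1.70 points without target genes, which was chosen after seeing the data. The number of regions in all 4 lists lay between 12 and 21. The planned motif comparison with other peaks was not run. With libraries paired by medium, GCN2 KO minus WT differed by -8 targets without leucine and by -3 in complete medium. This comparison was added after seeing the data, and 2 pairs cannot decide it, so no test result is read from it. Unknown sequencing depth limits every comparison of lists.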

Other observations

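A few promoters had peaks at more than 1 place. Mir200a in GCN2 KO complete, Rundc3a in WT without leucine and Rxra in WT complete each had 2 promoter peaks in their list. Chpf2, a chondroitin-synthesis gene, had a 5′ UTR region shared by GCN2 KO complete and WT without leucine, with centres 710 and 596 bp downstream of the TSS, and its GCN2 KO peak without leucine, 125 bp downstream, overlapped neither. Windows on both strands lay under 6 promoter regions, among them Txnrd1 with Gm38560 and Gclm with Gm46822, so a peak there cannot be given to 1 of the paired genes.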
